A study of Drosophila melanogaster with 12 samples.

Results

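The achaete-scute complex and the Enhancer of split complex are clusters of neural genes of Drosophila melanogaster, and their predicted nucleosomes were described here in 2 embryonic cell populations, with each complex treated separately. The members were all predicted nucleosomes that start on X from 255000 to 345000 (the achaete-scute complex, ac to ase) or on 3R from 21825000 to 21880000 (the Enhancer of split complex, up to gro), in dm3 coordinates. The achaete-scute interval held 376 nucleosomes in the map of the younger cells and 375 in that of the older cells. The Enhancer of split interval held 251 and 243. Together these are 1245 of the 1032783 nucleosomes of both maps.

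The younger cells are called GNP (Gcm-expressed neural progenitors), and the sample labels call them early glial cells. They came from embryos aged 5 to 7 h of the genotype gcm-Gal4,UAS-mCDGFP/cyo with UAS-3xFLAG-blrp-mCherry-RanGap. The older cells are called glia, late glial cells in the labels, and came from embryos aged 12 to 14 h in which the same UAS transgene, driven by repo-Gal4, was carried over the balancer Tm3B. The growth protocol states the same ages, although the times it gives for egg collection and further development add up to younger embryos. Both genotypes express the same FLAG-tagged protein of the nuclear envelope, by which nuclei were pulled out of fixed, pooled embryos with anti-FLAG beads (the INTACT method). Per the study, gcm is also active in precursors of hemocytes, and the GNP nuclei were judged there to be mainly those of neural progenitors. The purity of the nuclei was not tested here. Age, driver and cell type change together between the maps and cannot be told apart. Nuclear DNA was cut with micrococcal nuclease (MNase), which spares the DNA wrapped around histones, and the protected fragments were sequenced. Of the 12 samples of the series, each cell type and assay has 1. The ChIP-seq samples and the expression of cell type markers were not analysed here.

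Neuroblasts and glial precursors arise from ectoderm in which proneural genes are active. The genes ac, sc, l(1)sc and ase of the achaete-scute complex encode basic helix-loop-helix (bHLH) activators: ac, sc and l(1)sc give groups of ectodermal cells the competence to become neural, and ase is expressed in the precursors themselves. The enhancers of this complex are spread over long stretches of DNA between its genes. Signalling through the receptor Notch keeps neighbouring cells from taking the same fate, largely through the Enhancer of split complex, whose bHLH proteins repress proneural genes together with the co-repressor Groucho. Gcm and Repo, whose drivers mark the cells here, are the transcription factor that starts glial fate in the embryo and the homeodomain protein of differentiating glia.

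In the RefSeq annotation of genome release 6, 5 protein-coding genes lie in the order ac, sc, l(1)sc, Pgcl and ase, and 13 lie from E(spl)mdelta-HLH to gro. The second group begins with the bHLH repressor genes E(spl)mdelta-HLH, E(spl)mgamma-HLH and E(spl)mbeta-HLH. Next come E(spl)malpha-BFM, Kaz-m1 and E(spl)m2-BFM. After them lie E(spl)m3-HLH, E(spl)m4-BFM, E(spl)m5-HLH, E(spl)m6-BFM, E(spl)m7-HLH, E(spl)m8-HLH and finally gro. Names with BFM mark the Bearded family of Notch pathway regulators, and names with HLH mark the bHLH genes. That annotation is of another build than the maps. It gives names and order only, so no nucleosome below was assigned to a gene or promoter, and the match of each interval to its complex rests on the stated bounds.

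A nucleosome in these lists is an interval of fixed length whose midpoint is taken as the dyad, the symmetry axis of the wrapped DNA. The lists hold no occupancy, score or read count, so the depth behind each position is unknown. There was 1 library per cell type and hence no replicate check, and no test between cell types could be run: every difference compares these libraries only. Windows of the same length on the same arm served as the background, 247 of 90 kb on X and 505 of 55 kb on 3R. Ranks among them describe where a complex lies and are not a test. Intervals in brackets are 95% intervals for counting error only.

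The achaete-scute complex carried nearly the same number of nucleosomes in both maps. GNP had 376 (339 to 416, exact Poisson interval) and glia had 375 (338 to 415), or 4.18 and 4.17 per kb. The difference (glia minus GNP) was -1, against a median of -8 over the windows of X, and 75.3% of these windows had a lower difference. Both numbers were below the median windows of X, with 398 in GNP and 390 in glia. Nucleosomes covered 60.9% of the complex in GNP and 60.8% in glia.

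A long stretch of the complex had no call in either map. It ran from 322548 to 328572 in GNP (6024 bp) and from 322647 to 328587 in glia (5940 bp), which is 6.69% and 6.60% of the interval. Outside it the density was 4.48 per kb in GNP and 4.46 per kb in glia. The X chromosome has 524 stretches between neighbours over 500 bp apart in GNP and 529 in glia, and 81 in each map are longer than that of the complex. Uniquely mapped reads alone were used for the maps. Whether reads can be placed in this stretch was not tested.

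**Figure D1:**
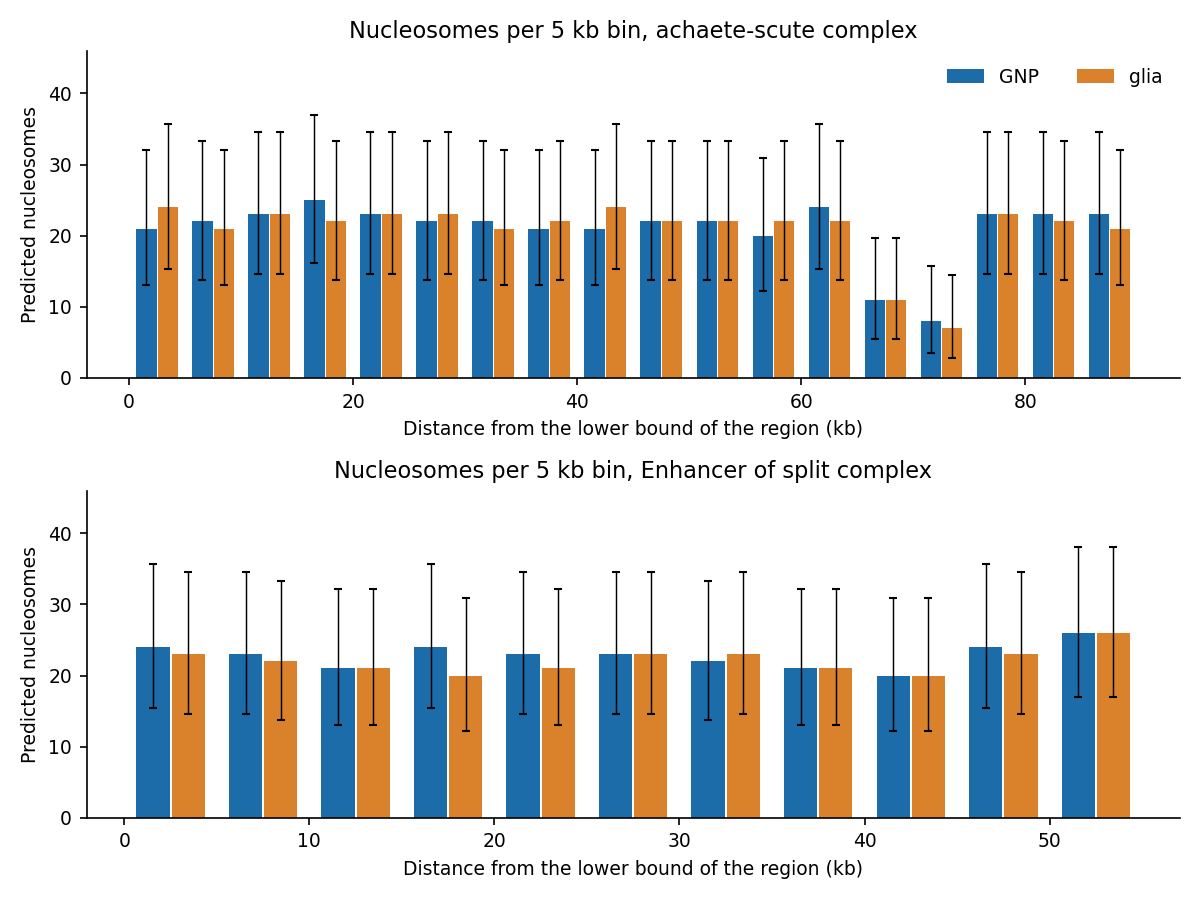
Predicted nucleosomes in bins of 5 kb (y axis) along the achaete-scute complex (upper panel) and the Enhancer of split complex (lower panel), by distance from the lower bound in kb (x axis), for GNP (blue) and glia (orange), with exact Poisson 95% intervals as bars. The intervals of both maps overlap in every bin, and the 2 low bins of the achaete-scute complex, with 11 and 8 GNP nucleosomes, hold the long stretch without calls.

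Along the achaete-scute complex, 5 of 18 bins of 5 kb held more nucleosomes in glia, 7 held more in GNP and 6 held equal numbers. The bins that differed most were 255000 to 259999 (21 in GNP, 24 in glia), 270000 to 274999 (25 and 22) and 295000 to 299999 (21 and 24). Their Poisson intervals overlapped between the maps, as the plot of numbers by bin shows.

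Spacing in the achaete-scute complex was wider than in most of X. From one dyad to the next the median distance was 207 bp (199 to 215) for GNP and 214.5 bp (205 to 222) for glia, beside medians of 202 and 210 bp over the windows of X. In each map 82.6% of windows were lower, although both medians of X lay inside the intervals of the complex. The windows of 90 kb before and after the complex had similar medians, 207 and 205 bp in GNP and 211 and 210 bp in glia. Distances of 160 to 200 bp, the range of a regular nucleosome array, made up 133 of 375 in GNP, or 35.5% (30.8 to 40.4, Wilson), and 129 of 374 in glia, or 34.5% (29.9 to 39.4). The windows of X had median shares of 39.6% in GNP and 34.6% in glia. The complex was therefore below the median of X in GNP, with 11.7% of windows lower, and near it in glia, where 121 of 247 were lower. Its change from GNP to glia was -0.975 percentage points, smaller than the median change of -4.66 points over the windows of X.

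Regular arrays, here runs of 3 or more neighbouring distances of 160 to 200 bp, numbered 15 in GNP, with 65 nucleosomes, and 12 in glia, with 53. The medians over the windows of X were 15 and 10. No run in either map had more than 5 such distances. The longest GNP run started at 337759 and had distances of 165, 161, 178, 181 and 172 bp. The longest glia run lay elsewhere, starting at 258974, with distances of 190, 188, 182, 198 and 185 bp.

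The nucleosomes of one map lay farther from those of the other in the achaete-scute complex than in nearly all windows of its chromosome arm. The median distance from a GNP dyad to the closest glia dyad was 55 bp, and it was also 55 bp from glia to GNP. The windows of X had medians of 38 and 36 bp. In GNP all 247 windows were lower, the highest at 53.5 bp. In glia 245 were lower and 2 were equal.

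**Figure D2:**
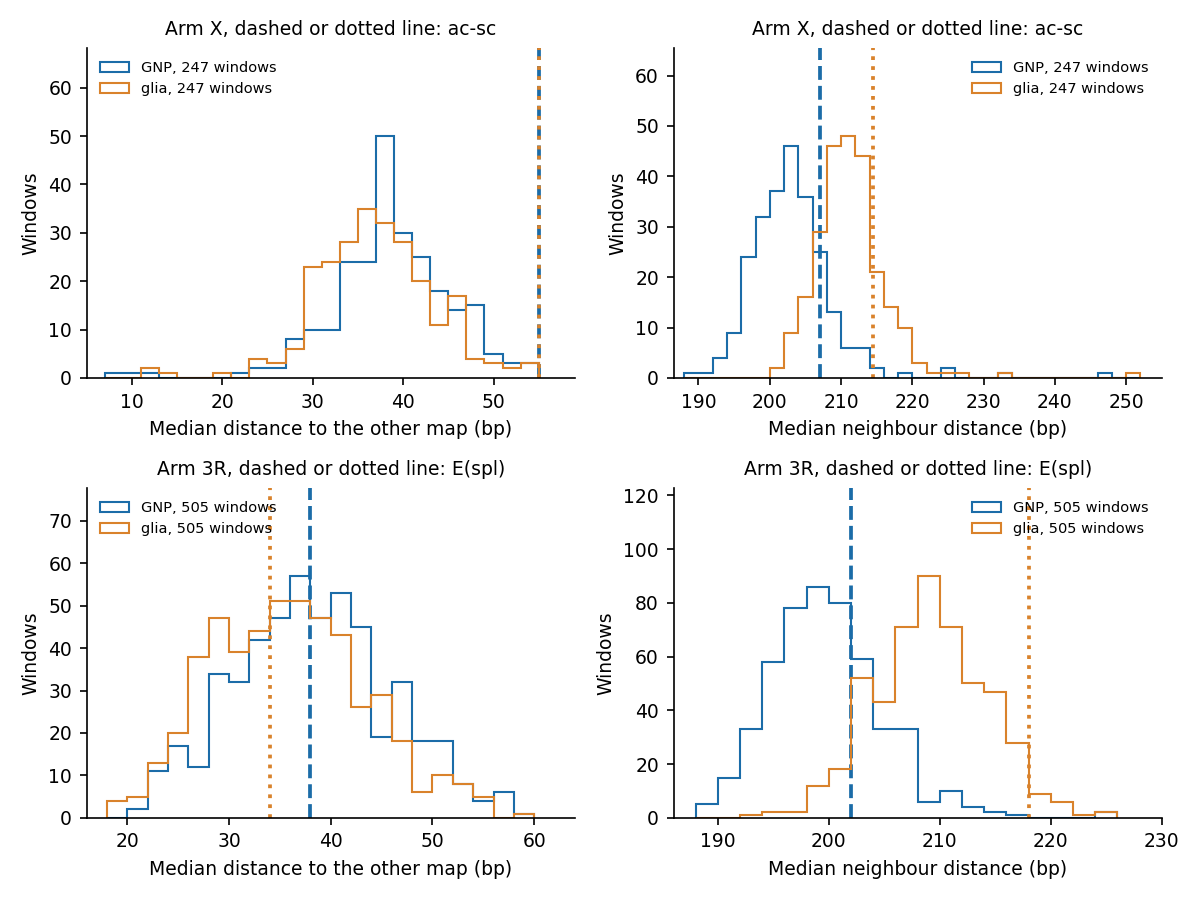
Number of windows (y axis) of X (upper row) and 3R (lower row) by the median distance to the closest dyad of the other map (left, in bp) and by the median distance between neighbours in one map (right, in bp), for GNP (blue outline) and glia (orange outline). Vertical lines (dashed for GNP, dotted for glia) mark each complex: the achaete-scute complex lies at the upper end of the left panel, at 55 bp in both maps, and the Enhancer of split complex near the upper end of the right panel in glia, at 218 bp.

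Exact agreement was about as frequent in the achaete-scute complex as on X as a whole, and close agreement was less frequent. At exactly the same position (a distance of 0 bp) were 7 nucleosomes, or 1.86% of the GNP and 1.87% of the glia nucleosomes, beside 1.61% and 1.65% over the whole arm. Their starts were 259534, 290157, 302848, 308661, 319841, 332158 and 334326. Within 10 bp of the other map were 85 nucleosomes, or 22.6% (18.7 to 27.1) in GNP and 22.7% (18.7 to 27.2) in glia. The arm shares were 27.6% and 28.2%, above both intervals. Of the 247 windows, 8 were lower in GNP and 7 in glia.

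Distances of intermediate size were more frequent in the complex than on its arm. A glia dyad 51 to 100 bp away was closest for 156 GNP nucleosomes, or 41.5%, against 32.8% on the arm. At 60 to 90 bp, a range chosen after the values were seen, were 110 GNP nucleosomes, or 29.3% (24.9 to 34.0), and 29.3% of the glia nucleosomes. The windows of X had medians of 22.1% and 22.2%, and 245 of them in GNP and 246 in glia were lower. The closest glia dyad was on the lower side for 173 GNP nucleosomes and on the higher side for 196, so the complex had no uniform direction of displacement.

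**Figure D3:**
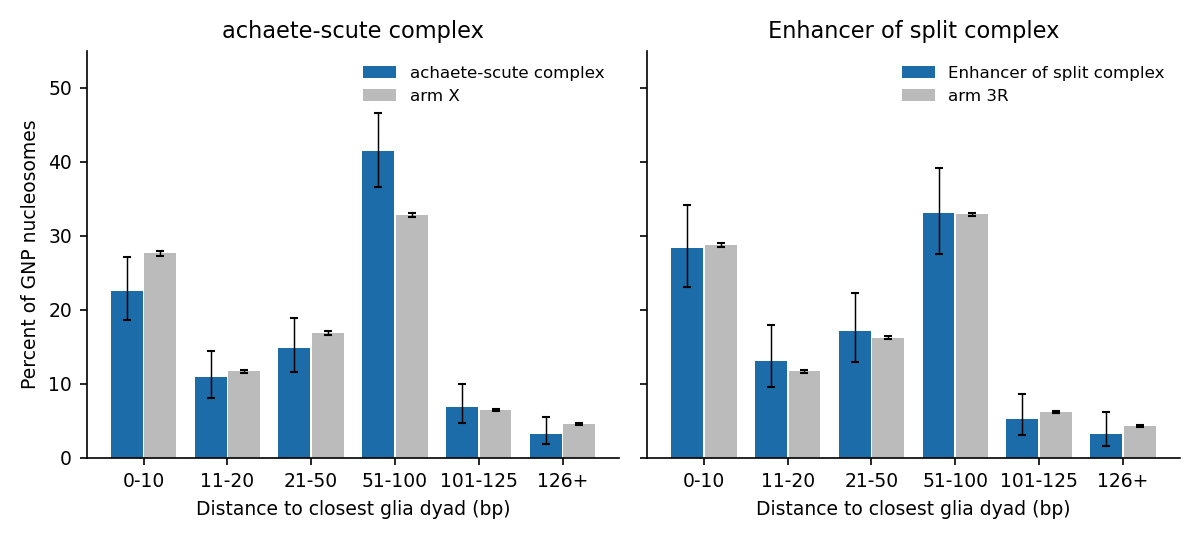
Percent of GNP nucleosomes (y axis) by distance in bp to the closest glia dyad (x axis), in each complex (blue) and on its whole arm (grey), with Wilson 95% intervals as bars. In the achaete-scute complex the class of 51 to 100 bp holds 41.5% against 32.8% on X, and in the Enhancer of split complex each class has an interval that includes the share on 3R.

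By bin of the achaete-scute complex, the median distance to the closest glia dyad ranged from 15 bp in the first bin to 77 bp in the bin from 290000. A median of 60 bp or more was reached in 8 of 18 bins, beside 15.8% of the bins of X, a threshold chosen after the values were seen. The 5 neighbouring bins from 290000 to 314999 all reached it, with medians of 61 to 77 bp. These 5 were the longest row of such bins. The bin from 280000, outside that stretch, had 15 of 22 nucleosomes at 60 to 90 bp. At the other extreme was the bin from 315000, where 10 of 24 nucleosomes (41.7%) had a glia dyad within 10 bp.

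**Figure D4:**
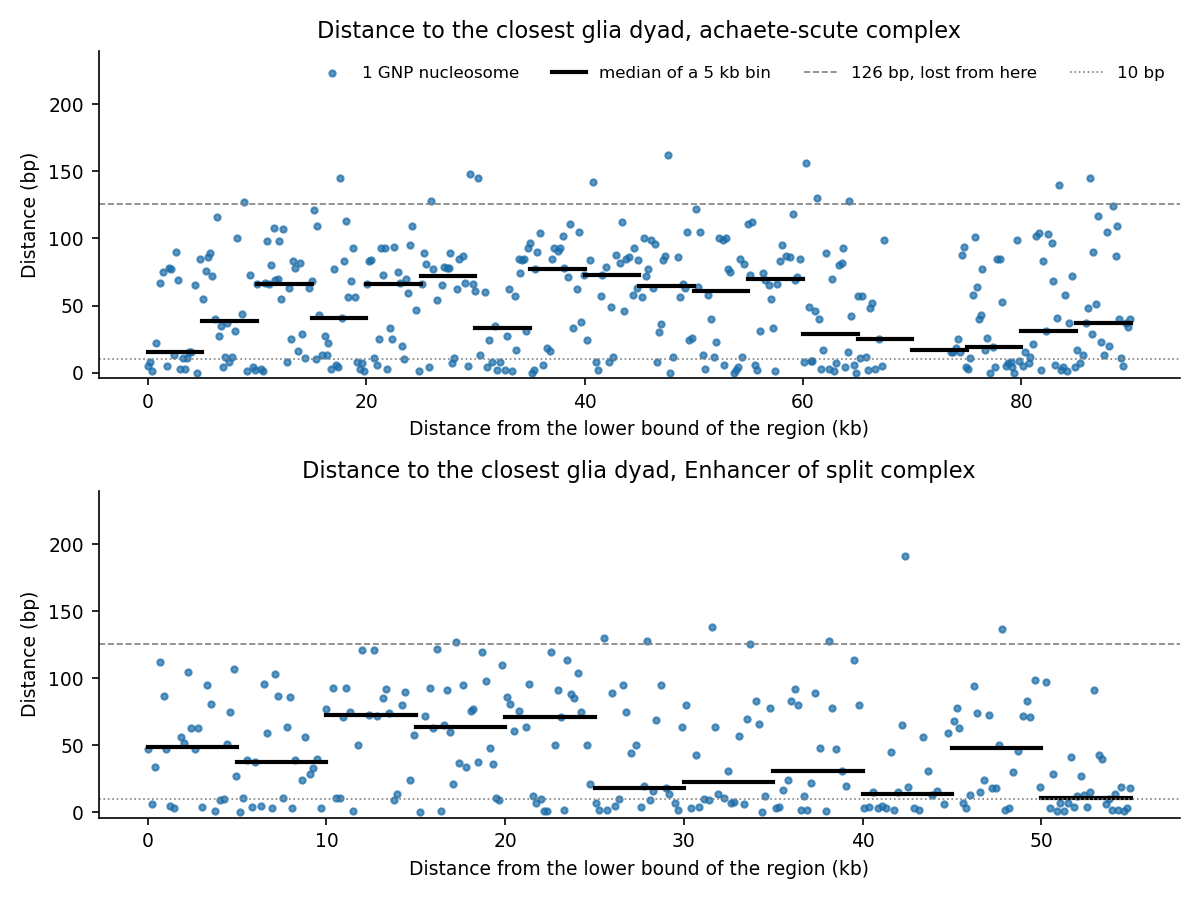
Distance in bp from each GNP nucleosome to the closest glia dyad (y axis) by position from the lower bound in kb (x axis), for the achaete-scute complex (upper panel) and the Enhancer of split complex (lower panel). Points are nucleosomes, thick bars are medians of 5 kb bins, and broken lines mark 10 bp and the 126 bp from which a nucleosome counts as lost. Medians of 60 bp or more fill the stretch from 35 to 60 kb of the achaete-scute complex and from 10 to 25 kb of the Enhancer of split complex. In the achaete-scute complex the bins that begin at 10, 20 and 25 kb also reach 60 bp, with medians of 66, 66 and 72 bp.

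Neighbouring nucleosomes were in places displaced by similar amounts. Blocks of 3 or more nucleosomes whose displacements lay within 20 bp of each other, each at least 11 bp, numbered 5 in GNP (16 nucleosomes) and 8 in glia (25 nucleosomes). The medians over the windows of X were 5 in both maps. In 1 such block, 4 GNP nucleosomes starting from 311345 to 312056 had their closest glia dyads at -74, -69, -65 and -55 bp. The longest run with a glia dyad within 10 bp throughout was of 5 GNP nucleosomes starting from 333552 to 334326, whose glia dyads lay at -5, 7, 8, 4 and 0 bp. The windows of X had a median longest run of 5 in GNP as well.

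Displacement was lower in the flanks of the achaete-scute complex. The window of 90 kb before it had a GNP median distance of 41 bp and the window after it 38 bp. At 60 to 90 bp were 23.6% and 19.4% of their GNP nucleosomes.

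Few nucleosomes of the achaete-scute complex lacked an overlap of more than 20 bp with the other map. An overlap of 20 bp or less (a dyad distance of at least 126 bp) with every nucleosome of the other map defined GNP nucleosomes as lost and those of glia as gained. There were 12 lost nucleosomes, 3.19% of the GNP number (1.83 to 5.49), beside 4.63% on X, and 14 gained ones, 3.73% of the glia number (2.24 to 6.17), beside 4.16%. The remainder, at a distance of 1 to 125 bp and called shifted, made up 94.9% of the GNP and 94.4% of the glia nucleosomes. This class is what the same-position and the lost or gained classes leave over. Its share on X was not computed separately, and the arm shares of those other classes are given above. A shifted nucleosome need not have a partner of its own. Pairs in which each was the closest of the other held 322 of 376 GNP nucleosomes (85.6%) and 321 of 375 glia nucleosomes (85.6%). The share of such pairs on X was not computed.

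The lost nucleosomes farthest from the glia map started at 302672 (162 bp away), 315256 (156 bp), 284526 (148 bp), 272580 (145 bp) and 285225 (145 bp), and the one at 341281 tied with the last of these. The gained ones farthest from the GNP map started at 255576 (201 bp), 287422 (178 bp), 343242 (178 bp), 285555 (172 bp) and 291347 (169 bp). The definition of these classes asks for room in the other map, so most of their dyads lie in gaps of it. In a glia gap fell 10 of 12 lost dyads, beside 84.7% on X, and in a GNP gap 13 of 14 gained dyads, beside 87.5%. These arm shares also count gaps between neighbours over 500 bp apart.

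Gaps, stretches of 150 bp or more free of nucleosomes between neighbours at most 500 bp apart, were similar in number between the maps of the achaete-scute complex, and fewer of them were wide in glia. GNP had 55 gaps (41.4 to 71.6), or 14.7% of its neighbour distances beside 12.1% on X, and glia had 50 (37.1 to 65.9), or 13.4% beside 12.9%. Gaps of 200 bp or more numbered 18 in GNP (10.7 to 28.4) and 8 in glia (3.45 to 15.8), so that the intervals overlapped. The windows of X had medians of 13 and 11. The GNP number was thus above its median, with 212 of 247 windows lower, and the glia number below, with 191 higher. The difference of -10 was lower than in most of X, where the median was -1 and 12 of 247 windows had a lower value. The longest gap measured 336 bp in GNP but 236 bp in glia, and all gaps together came to 10816 and 8979 bp.

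The 3 longest GNP gaps all held glia dyads. They ran from 303260 to 303596 (336 bp, 2 glia dyads), from 287390 to 287716 (326 bp, 1 dyad) and from 285529 to 285854 (325 bp, 1 dyad). Longer gaps have more room for a dyad, and gaps of this length were not compared with those of X. The longest glia gaps ran from 260951 to 261187 (236 bp, no GNP dyad), from 315246 to 315474 (228 bp, 1 dyad) and from 311600 to 311824 (224 bp, no dyad). Of all gaps in the complex, 39 of 55 in GNP (70.9%) and 34 of 50 in glia (68.0%) held a dyad of the other map. On X these shares were 68.0% and 69.6%, close to those of the complex.

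Gaps stayed in place about as often as on the whole arm. A gap of the other map covered at least 50% of 11 of 55 GNP gaps, beside 20% on X, and of 11 of 50 glia gaps, beside 19.2%. The bins from 290000 to 314999, picked for their distance to the other map, had 22 gaps and 106 nucleosomes in GNP and 14 gaps and 112 nucleosomes in glia. The rest of the complex had 33 and 36 gaps.

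**Figure D5:**
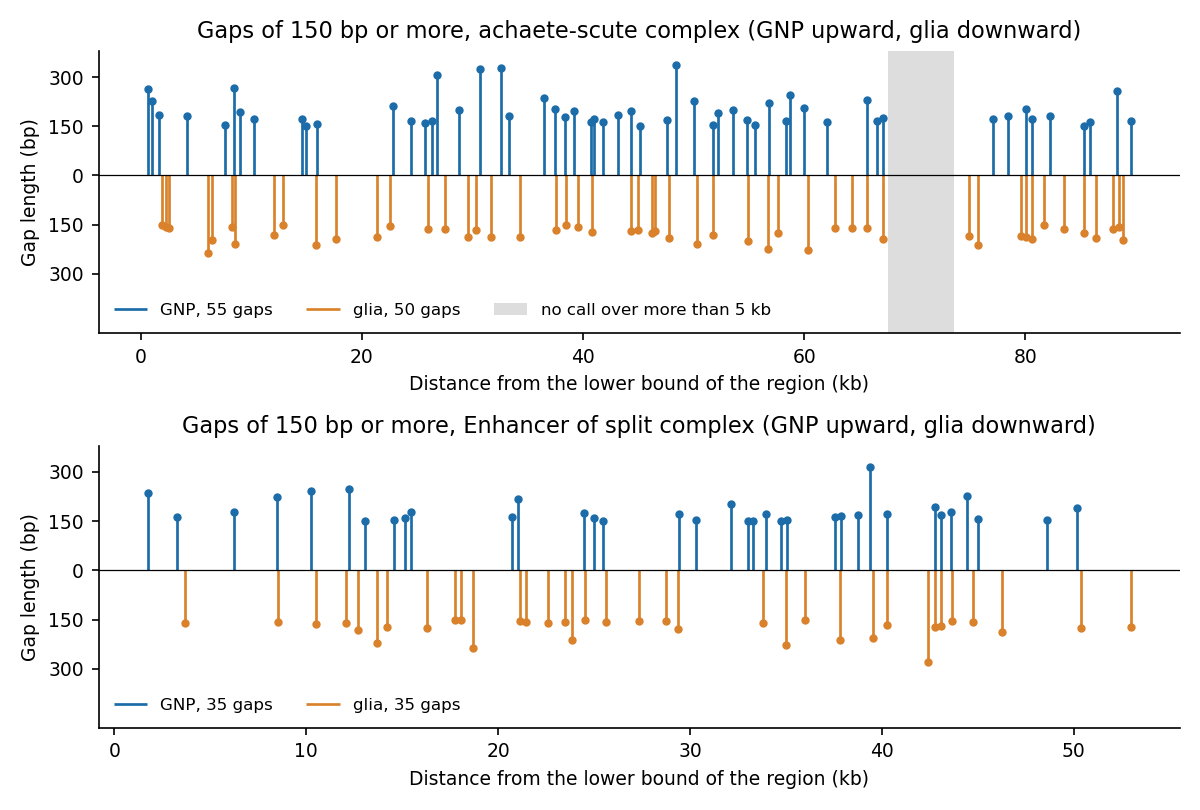
Length in bp (y axis) of each gap of 150 bp or more by position from the lower bound in kb (x axis), drawn upward for GNP (blue) and downward for glia (orange), in the achaete-scute complex (upper panel) and the Enhancer of split complex (lower panel). Grey marks the stretch without calls in both maps. In the achaete-scute complex 18 GNP gaps and 8 glia gaps reach 200 bp.

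The Enhancer of split complex had fewer nucleosomes in glia, by about as much as its arm. GNP had 251 (221 to 284) and glia 243 (213 to 276), or 4.56 and 4.42 per kb, with 66.4% and 64.3% of the interval covered. The windows of 3R had medians of 251 and 246. The difference of -8 compares with a median of -6 over these windows. No neighbours in the complex were over 500 bp apart, the longest distances being 460 and 426 bp.

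By bin, the Enhancer of split complex was even. Each of its 11 bins held 20 to 26 nucleosomes in either map. More were found in glia in 1 bin, more in GNP in 5 and equal numbers in 5. The bins named for their differences, with ties settled by the lower start, had 24 in GNP and 20 in glia from 21840000 to 21844999, 23 and 21 from 21845000 to 21849999, and 24 and 23 from 21825000 to 21829999 (tied with 3 other bins), all with overlapping Poisson intervals.

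Neighbouring nucleosomes of the Enhancer of split complex lay farther apart in glia than in most windows of its arm. The median distance between neighbours was 202 bp in GNP (193 to 214) and 218 bp in glia (204 to 232), beside 199 and 209 bp over the windows of 3R. In GNP 70.3% of windows were lower and in glia 96.4%, with 14 of 505 higher. The median rose by 16 bp from GNP to glia, where the arm windows had a median rise of 9.5 bp and 83.2% rose less. The intervals of both maps overlapped. Distances of 160 to 200 bp were 97 of 250 in GNP (38.8%) and 79 of 242 in glia (32.6%), beside medians of 41.7% and 35.7% on the arm. The 55 kb windows next to the complex had glia medians of 205 bp before and 209 bp after it, and the window beyond the latter had 218 bp, equal to the complex.

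Regular arrays in the Enhancer of split complex numbered 8 in GNP with 40 nucleosomes and 5 in glia with 24. The medians over the windows of 3R were 11 and 7. The longest run in GNP started at 21878245, near the upper bound, with distances of 166, 191, 179, 173, 162 and 185 bp. In glia 2 runs tied for the longest. The run starting at 21878608, which overlapped that of GNP, had distances of 183, 165, 174, 173 and 168 bp, and the run starting at 21854482 had 191, 160, 199, 184 and 193 bp.

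Positions in the Enhancer of split complex agreed between the maps about as often as elsewhere on 3R. At the same position were 3 nucleosomes (1.20% in GNP and 1.23% in glia, beside 1.68% and 1.73% on the arm), which started at 21830163, 21840213 and 21859368. Within 10 bp were 71, or 28.3% in GNP (23.1 to 34.2) and 29.2% in glia (23.9 to 35.2), beside 28.7% and 29.4%. From GNP the median distance to the other map was 38 bp and from glia 34 bp, with 37.5 and 35 bp over the windows of the arm. At 60 to 90 bp were 22.3% of the GNP and 21.4% of the glia nucleosomes, beside medians of 22.2% and 22.4% over the windows of 3R.

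By bin of the Enhancer of split complex, the median distance to the closest glia dyad ranged from 11 to 73 bp. The 3 neighbouring bins from 21835000 to 21849999 had median distances of 64 to 73 bp and were the only ones of 11 to reach 60 bp, beside 15.8% of the bins of 3R. These bins, picked for that distance, had 10 gaps in GNP and 15 in glia, while the rest had 25 and 20. At the upper end, the bin from 21875000 had a median distance of 11 bp, with 13 of 26 nucleosomes (50.0%) within 10 bp. The bin from 21835000 had 2 of 21 (9.52%).

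The longest runs with a glia dyad within 10 bp throughout were of 4 nucleosomes in the Enhancer of split complex. The windows of 3R had a median longest run of 5 in GNP. In the run starting at 21875888, in the bin of closest agreement, the glia dyads lay at 1, -7, 1 and 7 bp. The run starting at 21846707, within these 3 bins of high median distance, had 7, -10, -1 and -1 bp. Blocks displaced together numbered 3 in each map, equal to the medians over the windows of 3R. Of those in GNP, 1 began at 21870096 with glia dyads at -68, -78 and -63 bp.

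Gained nucleosomes outnumbered lost ones in the Enhancer of split complex, within counting error. There were 8 lost, 3.19% of the GNP number (1.62 to 6.16), beside 4.32% on 3R, and 12 gained, 4.94% of the glia number (2.85 to 8.43), beside 3.84%. The gained share minus the lost share was 1.75 percentage points, against a median of -0.398 over the windows of the arm, of which 91.3% were lower. The direction turned when an overlap of 73 bp or less defined the classes, with 29.1% lost and 26.7% gained. The lost nucleosomes farthest from the other map started at 21867353 (191 bp), 21856546 (138 bp), 21872825 (137 bp), 21850541 (130 bp) and 21852943 (128 bp), with which the one at 21863096 tied. The gained ones started at 21864301 (223 bp), 21837159 (186 bp), 21826684 (175 bp), 21869374 (171 bp) and 21857096 (169 bp). Dyads in a gap of the other map were 3 of 8 lost, beside 84.9% on 3R, and 10 of 12 gained, beside 88.1%. The arm shares again count gaps between neighbours over 500 bp apart too.

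Gaps in the Enhancer of split complex were equal in number between the maps and somewhat short. Each map had 35 (24.4 to 48.7), which is 14.0% of the GNP distances beside 11.4% on 3R and 14.5% of the glia distances beside 12.4%. GNP gaps had a median length of 170 bp and glia gaps one of 165 bp, with medians of 177 and 175 bp on the arm. Gaps of 200 bp or more numbered 8 and 7, beside medians of 7 and 6 over the windows of 3R. A dyad of the other map lay in 22 GNP gaps (62.9%, beside 68.6% on 3R) and in 24 glia gaps (68.6%, beside 70.7%).

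The longest GNP gap of the Enhancer of split complex ran from 21864224 to 21864538 (314 bp) and held the gained nucleosome that starts at 21864301. The next ones ran from 21837119 to 21837367 (248 bp, 1 glia dyad) and from 21835107 to 21835350 (243 bp, 2 dyads). In glia the longest ran from 21867264 to 21867544 (280 bp), and in it lay the lost nucleosome that starts at 21867353. It was followed by the gaps from 21843582 to 21843820 (238 bp) and from 21859909 to 21860136 (227 bp), each with 1 GNP dyad. A gap of the other map covered at least 50% of 9 GNP gaps, 25.7% (14.2 to 42.1) beside 19.6% on 3R, and of 10 glia gaps, 28.6% (16.3 to 45.1) beside 18.8%. Both arm shares lay inside these intervals.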

How the data were processed

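MNase-seq of GNP and glia was used, with 1 library each. Reads had been mapped to dm3 by the authors with Bowtie (version 0.12.7 in the submitters' processing notes), uniquely mapped reads kept and nucleosomes called with GeneTrack, whose settings are not given in the sources used here. The deposited lists hold positions in bp and no other value. End minus start was 146 bp throughout, and neighbouring starts were at least 147 bp apart, so closer calls do not occur. Whether positions count from 0 or 1 is unknown, an uncertainty of 1 bp.

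Python 3.11.15, numpy 2.4.6 and scipy 1.17.1 were used. Nucleosomes were selected by start, and each dyad was paired with the nearest one of the other map. Background shares cover all nucleosomes of the arm, and windows were tiled from each interval. Shares have Wilson intervals, numbers exact Poisson intervals and medians order-statistic intervals, all for counting error, since neighbouring nucleosomes are not independent. Pair classes and gaps were tested on simulated data.

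Named positions followed 1 rule: the 3 bins of 5 kb that differ most in number, the 3 longest gaps of each map, all nucleosomes at the same position, the 5 lost and 5 gained ones farthest from the other map and the longest run within 10 bp, with ties settled by the lower start. Other positions (stretches, bins, blocks and arrays) were chosen after their values were seen. Members and rules were chosen with earlier results of these data known. Bounds, distance limits, interval length and gap minimum were varied. No sequence is shown, as no dm3 genome was used here.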

Additional observations from a re-analysis of the deposited data

How the results depend on the processing

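Of 96 comparisons of 40 results with an alternative setting, 65 kept their value and 31 moved. Other limits for distance, overlap or gap length define other quantities, so many of these moves follow from the setting itself. The tally is therefore not a measure of how robust the results are. A kept value lay within the counting error of the main one. For ranks this was the Wilson interval of the share of windows, which treats the windows as independent. Gap numbers were instead kept if they lay within a fixed factor of the main number. A change of direction was not scored. With a tolerance of 1 bp, the same position held 4.26% of GNP and 4.27% of glia nucleosomes of the achaete-scute complex and 4.78% and 4.94% of the Enhancer of split complex. Within 20 bp were 33.5% and 33.6% of the first, with 1.21% of windows lower in GNP and 1.21% in glia, and 41.4% and 42.8% of the second, with 60.8% and 63.6% lower. Counting only nucleosomes with no overlap left 0.798% lost and 1.87% gained in the achaete-scute complex and 0.398% and 2.06% in the Enhancer of split complex. An overlap of 73 bp or less gave 35.4% and 35.5%, and 29.1% and 26.7%, which turned the order of lost and gained shares in the Enhancer of split complex. Gaps of 200 bp or more numbered 18 in GNP and 8 in glia, and 8 and 7. Without windows that long stretches without calls filled by over 10%, the windows with fewer nucleosomes were 10.6% in GNP and 15.1% in glia for the achaete-scute complex and 38.5% and 26.3% for the Enhancer of split complex, and 88.4% were lower in glia neighbour distance for the achaete-scute complex. With bounds widened by 5 kb, 59.0% of windows in GNP and 52.7% in glia were below the Enhancer of split complex in distance to the other map. The share of X windows with a lower median distance to the other map than the achaete-scute complex was at least 99.0% in both maps under 3 such alternatives, and the share of 3R windows with closer glia neighbours than the Enhancer of split complex was 95.6% to 97.0%. The rank alternatives and the wider bounds for them were chosen after seeing the data. No paired analysis was possible because each cell type has 1 library. Occupancy filters could not be run on positions alone, and the unknown depth limits what the absence of a call in either map can show.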
